A study of Mus musculus with 2 samples.

Results

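The 9 genes described here, Prox1, Sox18, Nr2f2, Foxc2, Lyve1, Pdpn, Itga9, Reln and Ccbe1, are genes by which lymphatic endothelial cells are recognised, and were taken by symbol from the 32285 genes counted. They were followed in single cells that carried eYFP, sorted from mouse embryos at E13.5, in 2 libraries. The control embryos were Isl1-Cre;R26R-eYFP and the mutant embryos Isl1-Cre;R26R-eYFP;Pik3caH1047R. In both genotypes Cre driven by Isl1, a gene of the cardiopharyngeal mesoderm and some other lineages, switched on eYFP from the R26R locus, and in the mutant also an activated form of the kinase subunit encoded by Pik3ca. Each library pooled 3 eYFP-positive embryos, and its tissue is labelled pharyngeal arch, although the dissection took the body above the liver. Transcripts were counted with the 10x Genomics kit for 5′ ends, in which every captured molecule carries a unique molecular identifier (UMI). Since there was 1 library per genotype, no test between genotypes could be made and no p-value is given.

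Lymphatic endothelial cells arise largely from venous endothelium, where Sox18 and Nr2f2 act upstream of Prox1. This homeodomain transcription factor sets and maintains lymphatic identity. For the cardiopharyngeal mesoderm, the authors of these data propose another route, from Etv2-positive endothelial progenitors without a venous step. Sprouting then depends on the growth factor VEGF-C and its receptor VEGFR3, and the cells acquire surface and secreted proteins such as Lyve1, Pdpn and Reln. None of the 9 genes is restricted to this cell type, so co-detection in a cell says more than any of them alone.

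Cells with more than 2000 but fewer than 9000 genes and under 10% mitochondrial UMIs were kept, 2783 of 4505 in the control library (63153191 UMIs, median 20412 per cell) and 3489 of 5357 in the mutant library (69717583 UMIs, median 16839). The libraries shared 28 cell barcodes, 12 of them among the kept cells. A cell was called endothelial when it held UMIs of at least 2 of the 3 genes Pecam1, Cdh5 and Tie1, which gave 175 control cells and 771 mutant cells, with medians of 20951 and 17964 UMIs. All 12 other endothelial markers examined had UMIs in both sets, with summed levels of 4812 and 5616 UMIs per 1000000 (CPM). Clustering placed 146 of the 175 and 674 of the 771 cells in the endothelial-like cluster. A cluster led by Hbb-bs, Ccl4 and Mpo held 16 further control and 36 further mutant cells, and the rest were spread over other clusters. Markers of other cells differed between the endothelial sets. The 6 hepatoblast markers summed to 1.71 CPM in control (3 of 6 with a UMI) and 794 CPM in mutant cells (6 of 6), and the 12 macrophage markers to 447 and 153 CPM, with a UMI of all 12 in both. The 9 mesenchyme markers summed to 436 and 199 CPM, with a UMI of all 9 in both. The 8 cardiomyocyte markers summed to 51.2 CPM (7 of 8) and 348 CPM (8 of 8). The 9 erythroid markers summed to 56.3 CPM (7 of 9) and 363 CPM (9 of 9). By Xist and Y-linked genes, 91.4% of the control endothelial cells were female-like and 0% male-like, against 32.9% and 53.7% of the mutant cells. The part of these differences in the results was not tested. Pik3ca itself had 47.8 CPM in control and 43.6 CPM in mutant endothelial cells, in counts that do not tell the alleles apart.

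Upstream sequence is shown for Prox1, which divides the cells below, and for Pdpn and Reln, whose detection within Prox1-positive cells differed most between the libraries among the members found there in at least 10% of control cells. The 250 bases before the annotated start are shown 5′ to 3′ on the strand of the gene, from RefSeq on GRCm38.p6, for Prox1 (first of its starts, chr1:190170828-190171077, minus strand), Pdpn (chr4:143299565-143299814, minus strand) and Reln (chr5:22344706-22344955, minus strand). Capitals mark matches on either strand to ACAAT, a core bound by SOX factors such as Sox18, to AGGTCA, the half-site of nuclear receptors such as Nr2f2, and to TAAACA, a core bound by forkhead factors such as Foxc2.
Prox1: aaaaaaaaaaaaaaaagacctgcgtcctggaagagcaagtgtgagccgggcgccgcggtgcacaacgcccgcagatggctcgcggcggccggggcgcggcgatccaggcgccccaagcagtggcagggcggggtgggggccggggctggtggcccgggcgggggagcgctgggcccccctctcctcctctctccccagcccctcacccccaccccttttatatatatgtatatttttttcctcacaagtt
Pdpn: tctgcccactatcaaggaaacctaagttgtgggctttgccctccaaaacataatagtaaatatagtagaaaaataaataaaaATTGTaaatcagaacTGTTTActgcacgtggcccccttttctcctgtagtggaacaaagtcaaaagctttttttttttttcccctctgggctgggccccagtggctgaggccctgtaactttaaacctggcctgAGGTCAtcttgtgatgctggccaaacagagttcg
Reln: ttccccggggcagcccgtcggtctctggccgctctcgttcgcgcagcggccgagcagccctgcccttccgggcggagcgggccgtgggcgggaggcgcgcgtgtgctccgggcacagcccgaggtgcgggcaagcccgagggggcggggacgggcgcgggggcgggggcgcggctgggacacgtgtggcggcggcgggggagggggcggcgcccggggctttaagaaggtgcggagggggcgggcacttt
The Pdpn window held all 3 kinds of match. ACAAT lay 168 and TAAACA 153 bases before the start, both on the other strand, and AGGTCA 34 bases before it on the strand of the gene. The Prox1 and Reln windows shown held 0 matches, and 64.8% and 80.0% of their bases were G or C. The window of the second Prox1 start (chr1:190169516-190169765, not shown) held TAAACA 166 bases before that start, on the other strand. The bases that follow the start were found in annotated transcripts of Pdpn and Reln, but for neither start in those of Prox1. Of 32851 promoter windows of the same length, 27.7% held ACAAT, 14.0% AGGTCA and 12.0% TAAACA. The 3 motifs do not overlap one another in these windows. A match is a run of letters, not a shown binding site.

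Within endothelial cells, the level of Reln was 5.97-fold lower in the mutant library and that of Ccbe1 9.68-fold lower, Prox1 and Sox18 were lower by 1.59-fold and 1.64-fold, Foxc2 was 2.82-fold and Nr2f2 1.58-fold higher, and Lyve1, Pdpn and Itga9 lay within 1.5-fold. Of these, Pdpn passed 1.5-fold under other settings, with log2 ratios of −1.30 in cells thinned to 5000 UMIs, −0.71 as a mean over cells and −1.62 in female-like cells. Lyve1 passed it in both directions. Its log2 ratio was 0.73 in cells with no UMI of 5 blood cell genes and −0.74 where 1 of the 3 endothelial genes sufficed. Thus 4 members were at least 1.5-fold lower and 2 at least 1.5-fold higher, where 18.6% of the 15223 genes with at least 20 UMIs were lower and 12.1% higher by that margin. The whole counting interval lay beyond 1.5-fold for 3 of the lower members and 1 of the higher. The share of all genes with such an interval was not computed, so these counts are not read as a trait of the members. The median log2 ratio of mutant over control was −0.28 for the 9 members and −0.10 for all genes. Scaled by edgeR's TMM factor, which adds 0.16 to every log2 ratio, 2 members were lower and 2 higher. Values below are UMIs of a gene per 1000000 UMIs of the set of cells (CPM), with 95% intervals that hold the error of counting alone. The spread over cells, embryos, dissections or libraries is not in them. Log2 ratios without the highest cell of each library, given below for some genes, could fall outside them. CPM are not corrected for gene length, so they are compared between cells and not between genes.

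**Figure D1:**
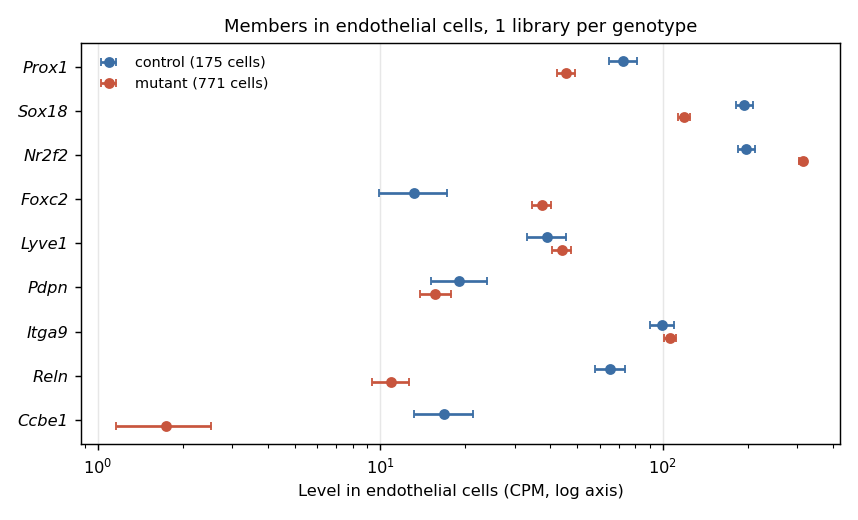
Levels of the 9 members in endothelial cells, in UMIs per 1000000 on a log axis, for the control (175 cells) and the mutant library (771 cells); bars are 95% Poisson intervals. Reln and Ccbe1 show the widest separation, with the mutant below the control, and Foxc2 the widest with the mutant above.

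Of the transcription factors, Prox1 (chr1:190118035-190170714, minus strand of GRCm38) had 297 UMIs in control and 733 in mutant endothelial cells, 72.7 CPM (64.7 to 81.5) and 45.7 CPM (42.5 to 49.1), a log2 ratio of −0.67 (−0.87 to −0.47). It was detected in nearly the same share of cells, 49 of 175 (28.0%, Clopper-Pearson interval 21.5 to 35.3) and 221 of 771 (28.7%, 25.5 to 32.0). In cells thinned to 5000 UMIs the share was 16.3% (11.1 to 22.7) in control and 12.97% (10.6 to 15.6) in mutant cells. At full depth the lower level came with fewer UMIs per positive cell, a mean of 6.06 in control and 3.32 in mutant cells. The median was 4 UMIs in control (range 1 to 35) and 2 in mutant cells (range 1 to 41), and 30.6% and 49.3% of positive cells held a single UMI. As the background, 2.05% and 6.67% of cells held a Prox1 UMI in an unnamed cluster led by Adh1, Wnt2 and Tbx4 (342 control and 60 mutant cells outside the endothelial sets, medians of 23584 and 22902 UMIs).

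Sox18 (chr2:181669836-181671640, minus strand), a SOX factor of early vascular endothelium, had 195 CPM in control and 119 CPM in mutant cells, a log2 ratio of −0.71 (−0.83 to −0.59). It was detected in 72.0% and 62.0% of cells, beside 6.14% and 5% in the Adh1 cluster. Nr2f2 (chr7:70351944-70366735, minus strand), the nuclear receptor COUP-TFII of venous identity, had 198 CPM in control and 313 CPM in mutant cells, a log2 ratio of 0.66 (0.55 to 0.77), and was detected in 65.7% and 76.7% of cells. Foxc2 (chr8:121116171-121118895, plus strand), a forkhead factor needed for lymphatic valves, had 13.2 CPM from 54 UMIs in control and 37.3 CPM from 599 UMIs in mutant cells, a log2 ratio of 1.498 (1.09 to 1.93). It was found in 17.7% of control and 34.2% of mutant cells. The 2 factors placed upstream of Prox1 therefore stood on opposite sides, Sox18 lower and Nr2f2 higher.

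Of the surface proteins, Lyve1 (chr7:110850607-110863239, minus strand), a hyaluronan receptor of lymphatic endothelium that tissue macrophages also carry, had 38.9 CPM in control and 44.0 CPM in mutant endothelial cells, a log2 ratio of 0.17 (−0.08 to 0.43). It was detected in 20.6% and 16.1% of them, beside 1.75% and 0% (0 of 60 cells, which allows up to 5%) in the Adh1 cluster. Pdpn (chr4:143267431-143299564, minus strand), podoplanin, the ligand of the platelet receptor CLEC-2, had 19.1 CPM in control and 15.7 CPM in mutant cells, a log2 ratio of −0.28 (−0.65 to 0.10). Its detection was 12.6% (8.05 to 18.4) in control and 5.45% (3.95 to 7.29) in mutant cells. The Adh1 cluster showed 6.43% and 8.33%, so that over all endothelial cells the mutant share was not above that of this cluster. The mutant level was above it, with 15.7 CPM (13.8 to 17.8) in endothelial cells and 4.87 CPM (1.96 to 10.03) in the Adh1 cluster. Itga9 (chr9:118606690-118901003, plus strand), an integrin chain of valve leaflets, had 99.9 and 106 CPM, a log2 ratio of 0.09 (−0.07 to 0.25), although it was detected in 54.3% of control and 70.4% of mutant cells.

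Of the secreted proteins, Reln (chr5:21884454-22344702, minus strand), the glycoprotein reelin released by lymphatic endothelium, had 65.1 CPM from 266 UMIs in control and 10.9 CPM from 175 UMIs in mutant cells, a log2 ratio of −2.58 (−2.86 to −2.30). It was found in 17.1% (11.9 to 23.6) and 9.21% (7.26 to 11.5) of cells, beside 1.17% and 0% in the Adh1 cluster, and positive cells held a mean of 8.87 and 2.46 UMIs. Ccbe1, an extracellular cofactor in the processing of VEGF-C that is made mainly by cells around vessels, had 16.9 CPM in control and 1.75 CPM in mutant cells, a log2 ratio of −3.27 (−3.96 to −2.62). Its 69 control UMIs came from 9 cells, and 48 of them from 1 cell that clustered with branchial muscle-like cells. Without the cell of highest count in each library the log2 ratio was −2.21, and the level in endothelial cells thus rested largely on 1 cell. Over alternative choices of cells and scaling, Reln stayed between −3.05 and −0.82 and Foxc2 between 0.88 and 1.77. Nr2f2 ran from 0.575, which is within 1.5-fold, to 0.86. Prox1 and Sox18 lost their difference with 1 of the 3 endothelial genes in place of 2 (log2 ratios of 0.016 and 0.061, in 467 control and 1245 mutant cells).

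The cells were next divided by Prox1 into those with at least 1 UMI and those with none. There were 49 Prox1-positive control cells (median 22642 UMIs) and 221 Prox1-positive mutant cells (median 23555). The Prox1-negative cells numbered 126 (median 20719) and 550 (median 16166). The division showed that Reln and Pdpn were detected in a smaller share of Prox1-positive cells in the mutant library, whereas Foxc2 was detected in a larger share of both kinds of cell. Ccbe1 was too scarce to be read this way, with UMIs in 4 control and 1 mutant Prox1-positive cells.

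**Figure D2:**
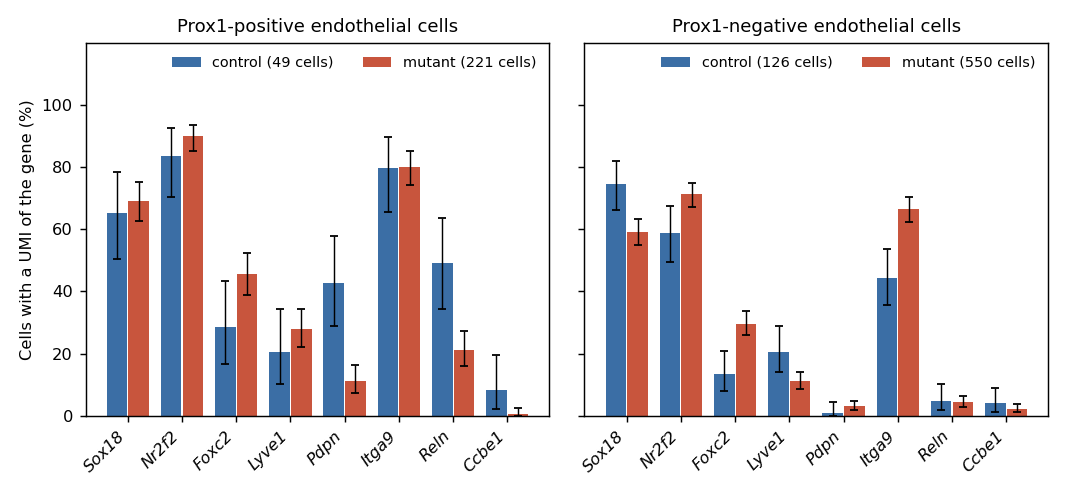
Share of Prox1-positive (left) and Prox1-negative (right) endothelial cells with a UMI of each other member, in percent, by library; bars are 95% Clopper-Pearson intervals. Among Prox1-positive cells Pdpn and Reln are detected in a larger share of control cells. Their intervals do not overlap, but these hold no spread over embryos or libraries and are no test between genotypes.

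Among Prox1-positive cells, Pdpn was detected in 21 of 49 control cells (42.9%, 28.8 to 57.8) and 25 of 221 mutant cells (11.3%, 7.46 to 16.2). Reln was detected in 24 of 49 (49.0%, 34.4 to 63.7) and 47 of 221 (21.3%, 16.1 to 27.3). Lyve1 did not share this pattern, with 20.4% (10.2 to 34.3) and 28.1% (22.2 to 34.5). Foxc2 was detected in 28.6% (16.6 to 43.3) of control and 45.7% (39.0 to 52.5) of mutant cells. Sox18 (65.3% and 69.2%), Nr2f2 (83.7% and 90.05%) and Itga9 (79.6% and 80.1%) were found in most cells of either library. With every cell reduced to 5000 UMIs at random, which dropped the 3 control and 31 mutant cells below that depth and kept 28 and 96 Prox1-positive cells, Pdpn was at 28.6% and 8.33%, Reln at 53.6% and 18.8%, Lyve1 at 17.9% and 22.9% and Foxc2 at 10.7% and 20.8%.

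Levels in Prox1-positive cells gave a similar picture for Reln, with 188 CPM in control and 24.0 CPM in mutant cells, a log2 ratio of −2.96 (−3.27 to −2.66). Pdpn had 55.5 and 36.2 CPM, a log2 ratio of −0.62 (−1.003 to −0.22). Of the 209 mutant Pdpn UMIs 61 came from 1 cell, and without the highest cell of each library the log2 ratio was −0.88. Among cells with at least 2 Prox1 UMIs, however, it was −0.32 (−0.71 to 0.09), within 1.5-fold. Pdpn was detected in 58.8% of such control cells and 18.75% of such mutant cells. Lyve1 was higher, with 25.97 and 81.7 CPM, a log2 ratio of 1.65 (1.16 to 2.18), and 2.43 without the highest cells. Foxc2 was higher too, with 17.3 and 44.8 CPM and a log2 ratio of 1.37 (0.77 to 2.04). After thinning, 3 control and 28 mutant Foxc2 UMIs gave 1.44 (−0.25 to 3.81), an interval that covered both directions. Sox18 had a log2 ratio of −0.51 (−0.73 to −0.29) and Nr2f2 one of 0.40 (0.24 to 0.56). For Nr2f2 this depended on the setting. It was −0.21 (−0.67 to 0.27) in thinned cells and 0.16 (−0.0005 to 0.33) within the endothelial-like cluster. In female-like cells it was 0.45, and without the highest cells 0.48. Itga9 had 211 and 118 CPM, a log2 ratio of −0.84 (−1.04 to −0.64). It was −0.53 without the highest cells, since 1 control cell held 68 of 293 UMIs. Ccbe1 had 55 UMIs in 4 control cells and 3 UMIs in 1 mutant cell, a log2 ratio of −6.26 (−8.58 to −4.63). In control 48 of the 55 UMIs came from the 1 branchial muscle-like cell named above. Without the highest cells, and with the mutant at the floor of 3 counts, the log2 ratio was −3.32 or lower. For cells that also lay in the endothelial-like cluster no ratio could be given, since the control cells there held no Ccbe1 UMI. In all, 4 of the 8 members other than Prox1 were at least 1.5-fold lower and 2 at least 1.5-fold higher, where 21.7% and 12.1% of 12776 genes were. The median was −0.56 for these members and −0.11 for all genes. Without the highest cells 3 were lower and 2 higher, and in cells with at least 2 Prox1 UMIs Pdpn was not among the lower ones.

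In Prox1-negative cells the order was different. Lyve1 was detected in 20.6% (13.9 to 28.8) of control and 11.3% (8.75 to 14.2) of mutant cells, and its level had a log2 ratio of −1.01 (−1.33 to −0.68). That value was −0.55 when cells also had to lie in the endothelial-like cluster, and −0.26 (−0.83 to 0.34) in cells thinned to 5000 UMIs, so that it lay within 1.5-fold in both. Itga9 was higher by a log2 ratio of 1.22 (0.94 to 1.52), Nr2f2 by 0.86 (0.71 to 1.01) and Foxc2 by 1.58 (1.03 to 2.17), while Sox18 had −0.80 (−0.95 to −0.66). After thinning to 5000 UMIs, Itga9 had 0.87 (0.44 to 1.34) and Nr2f2 0.89 (0.61 to 1.17). Foxc2 then had 0.78 (−0.004 to 1.66), an interval that reached 0. Pdpn (1 control and 43 mutant UMIs, log2 ratio 3.50, 0.94 to 8.84) and Reln (6 and 36 UMIs, 0.66, −0.60 to 2.20) were scarce. Pdpn was detected in 0.794% and 3.09% and Reln in 4.76% and 4.36% of these cells. Ccbe1 had 14 and 25 UMIs and a log2 ratio of −1.09 (−2.09 to −0.03). Thus 3 of 8 members were at least 1.5-fold lower and 5 higher, where 15.2% and 13.3% of 13992 genes were. The median was 0.76 for the members and −0.06 for all genes. In thinned cells 2 were lower and 3 higher (Pdpn −0.16, Reln 0.16), within the endothelial-like cluster 2 and 4, and in female-like cells 4 and 4, with Reln at −1.42. In 1 mutant cell lay 21 of the 43 Pdpn UMIs, and without the highest cells the log2 ratio of Pdpn was 0.94.

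**Figure D3:**
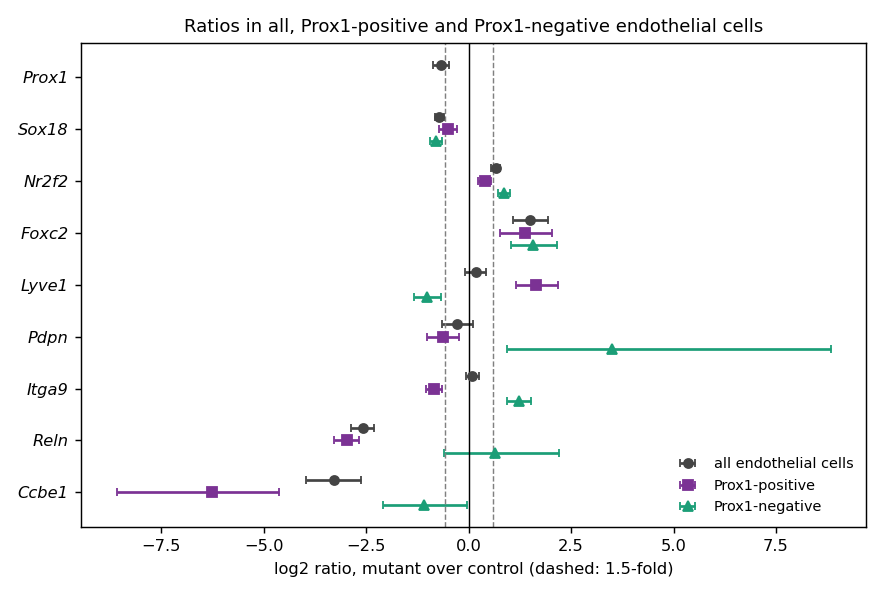
Log2 ratio of mutant over control for the members in all, Prox1-positive and Prox1-negative endothelial cells; bars are 95% conditional exact binomial intervals. Lyve1 and Itga9 lie on opposite sides of 0 in Prox1-positive and Prox1-negative cells, and Reln is lower in Prox1-positive cells.

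The markers of other cells also differed within these sets. Hepatoblast markers summed to 4.33 CPM in control (2 of 6 with a UMI) and 1270 CPM in mutant Prox1-positive cells (6 of 6). In Prox1-negative cells they summed to 0.371 CPM (1 of 6) and 526 CPM (6 of 6). Macrophage markers, which bear on Lyve1, summed to 613 and 124 CPM in Prox1-positive and to 362 and 169 CPM in Prox1-negative cells, with a UMI of all 12 in each set. Mesenchyme markers, which bear on Pdpn and Ccbe1, summed to 581 and 120 CPM in Prox1-positive and to 362 and 244 CPM in Prox1-negative cells, with a UMI of all 9 in each set. Branchial muscle markers summed to 291 CPM (10 of 11) and 172 CPM (11 of 11) in Prox1-positive cells, and cardiomyocyte markers to 67.1 CPM (6 of 8) and 305 CPM (7 of 8). In Prox1-negative cells branchial muscle markers (11 of 11 in both) summed to 153 and 86.9 CPM and cardiomyocyte markers (7 and 8 of 8) to 43.0 and 372 CPM. The part of these cells in the ratios was not tested, beyond the values within the endothelial-like cluster (Prox1-positive Pdpn −0.71 and Reln −3.39). In cells with no UMI of 5 blood cell genes, the log2 ratio of Lyve1 over all endothelial cells was 0.73, against 0.17. In female-like cells of both libraries, the Prox1-positive log2 ratios were −1.93 for Pdpn, −3.22 for Reln and 0.98 for Lyve1.

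Pdpn and Reln were detected in a larger share of cells with 5 or more Prox1 UMIs than of cells with 0. This was not particular to them, since it held for the other members too except Ccbe1, at 0% with 5 or more. Itga9, for example, went from 44.4% to 94.7% in control and from 66.5% to 97.1% in mutant cells. In control cells Reln was detected in 4.76% of the cells with 0 Prox1 UMIs, 6.67% with 1, 33.3% with 2 to 4 and 94.7% (18 of 19, 74.0 to 99.9) with 5 or more. In mutant cells the shares were 4.36%, 11.0%, 24.4% and 47.1% (16 of 34, 29.8 to 64.9). Among cells with 5 or more Prox1 UMIs, Reln was found in a smaller share of mutant than of control cells. The intervals did not overlap, but they hold no spread over embryos or libraries, so this is no test between genotypes.

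For Pdpn the shares were 0.794%, 6.67%, 40.0% and 73.7% (14 of 19, 48.8 to 90.9) in control and 3.09%, 3.67%, 11.5% and 35.3% (12 of 34, 19.7 to 53.5) in mutant cells. The intervals at 5 or more overlapped slightly. The control steps above 0 UMIs held 15, 15 and 19 cells, fewer than 20 each, and the mutant steps 109, 78 and 34. Cells with 5 or more Prox1 UMIs had medians of 20476 total UMIs in control and 27087 in mutant. The steps are counts of UMIs, so they do not match the libraries for the level of Prox1. The part of depth and of Prox1 level in these shares was not tested. Lyve1 was detected in 20.6%, 6.67%, 20% and 31.6% of control and 11.3%, 24.8%, 25.6% and 44.1% of mutant cells over the same steps. Its intervals overlapped between libraries in every step.

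**Figure D4:**
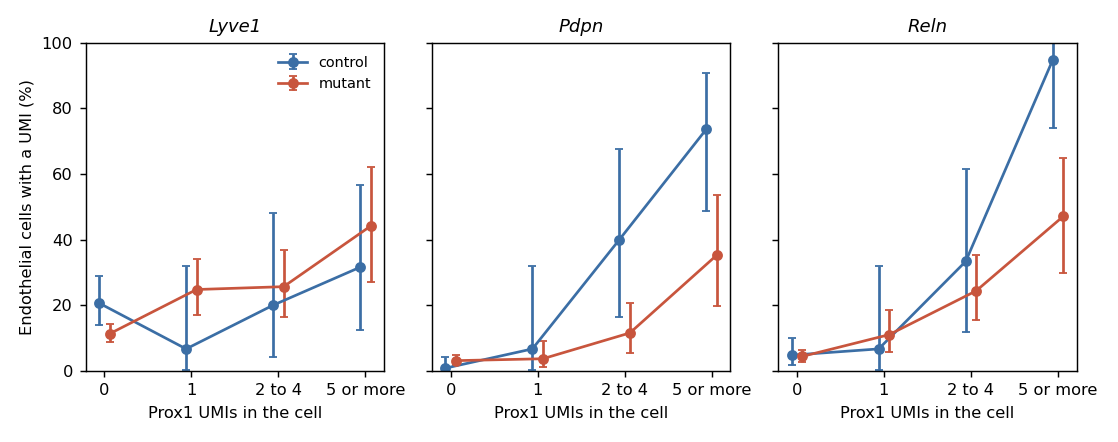
Share of endothelial cells with a UMI of Lyve1, Pdpn or Reln, in percent, by the number of Prox1 UMIs in the cell, for each library; bars are 95% Clopper-Pearson intervals. Reln and Pdpn reach 94.7% and 73.7% of control cells with 5 or more Prox1 UMIs, and 47.1% and 35.3% of such mutant cells.

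Combinations of markers restate in part the single shares given above, so they are no separate difference between the libraries. The 3 markers Lyve1, Pdpn and Reln were counted together. At least 2 of them were detected in 21 of 49 control Prox1-positive cells (42.9%, 28.8 to 57.8) and in 26 of 221 mutant ones (11.8%, 7.83 to 16.8), and after thinning in 32.1% and 7.29%. Pdpn with Reln and without Lyve1 was the most frequent combination in control, with 13 cells (26.5%), and was found in 9 mutant cells (4.07%). Lyve1 alone was found in 2 control (4.08%) and 45 mutant cells (20.4%), and none of the 3 in 21 (42.9%) and 122 cells (55.2%). All 3 were found in 6 control (12.2%) and 9 mutant cells (4.07%). In Prox1-negative cells at least 2 of the 3 were detected in 0 of 126 control cells, which allows a share of up to 2.38%, and in 7 of 550 mutant cells (1.27%).

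Co-detection over all endothelial cells was described by the number of cells with both genes over the number given by the product of their shares. The cells of a library share its depth, so this ratio is given with no test, at full depth and in cells thinned to 5000 UMIs. Pdpn and Reln were found together in 19 control cells (5.04 times the product, 8.15 thinned) and 20 mutant cells (5.17 times, 5.61 thinned), although 86.4% of control and 47.6% of mutant Pdpn cells held Reln. Prox1 was present in 21 of 22 control and 25 of 42 mutant Pdpn cells (3.41 and 2.08 times, 4.91 and 3.85 thinned). It was present in 24 of 30 control and 47 of 71 mutant Reln cells (2.86 and 2.31 times, 4.85 and 4.205 thinned). Of the Lyve1 cells, 10 of 36 in control (0.992 times, 1.28 thinned) and 62 of 124 in mutant (1.74 times, 2.23 thinned) held Prox1. At full depth 28 of the 36 pairs of members in control and 30 in mutant cells were above 1, 23 in both, with medians of 1.30 and 1.13. Uneven depth of cells can raise this ratio for any pair of genes. Pairs of other genes were not counted, so no background stands beside these counts and they are not read as a trait of the members. The median cell held 3 of the 9 members in either library, 0 of 175 and 0 of 771 held all 9, and 8 were held by 3 cells in each.

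Most members were as high or higher in other cells of the sort. Prox1, known from neurons, heart and muscle, had 71.3 CPM in control and 58.4 CPM in mutant neuron-like cells, 53.1 and 40.2 in cardiomyocyte-like and 47.0 and 33.5 in branchial muscle-like cells. In control, the endothelial level (72.7 CPM) and the neuron-like one overlapped in their intervals. In epithelium-like cells Prox1 had 6.003 and 14.5 CPM, a log2 ratio of 1.27 (0.59 to 1.99), where endothelial cells had −0.67. Sox18 was the member most restricted to endothelium, with at most 3.24 CPM in any other class of at least 50 cells. Nr2f2 was highest in the Adh1 cluster, with 386 and 367 CPM. Its log2 ratio was 1.51 (1.35 to 1.67) in neuron-like, 0.88 (0.71 to 1.06) in epithelium-like, 0.70 (0.61 to 0.79) in branchial muscle-like and −0.66 (−1.05 to −0.27) in cardiomyocyte-like cells. Foxc2 was higher in the mutant library in mesenchyme-like cells too, with 15.4 and 35.0 CPM, a log2 ratio of 1.18 (0.91 to 1.46). In the Adh1 cluster it had 2.52 and 18.8 CPM, a log2 ratio of 2.90 (2.02 to 3.79). In branchial muscle-like cells, 3 control and 23 mutant UMIs gave 3.21 (1.49 to 5.59).

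**Figure D5:**
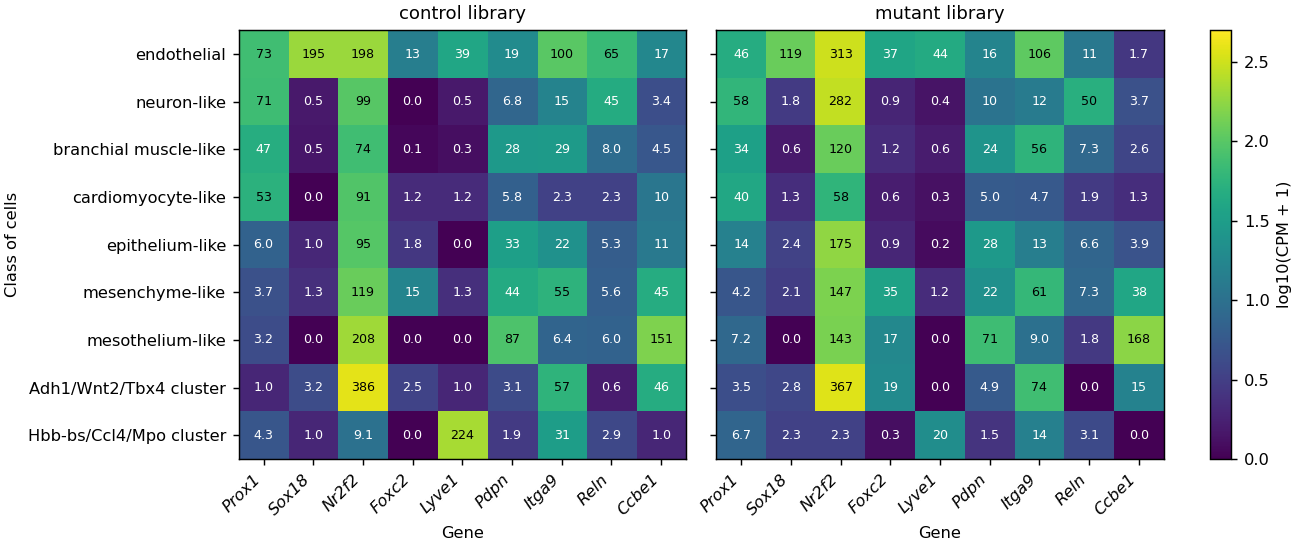
Levels of the 9 members (columns) in 9 classes of cells (rows) in the control and mutant libraries; colour is log10 of UMIs per 1000000 plus 1 and each cell of the map shows the UMIs per 1000000. Sox18 is at most 3.24 outside the endothelial row, while Nr2f2 is highest in the Adh1/Wnt2/Tbx4 cluster and Lyve1 of the control in the Hbb-bs/Ccl4/Mpo cluster.

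Outside endothelium Lyve1 lay mostly in the Hbb-bs, Ccl4 and Mpo cluster, with 937 of 972 UMIs in control and 78 of 106 in mutant cells. Its level there was 224 CPM in control and 20.05 CPM in mutant cells, and at most 1.32 CPM in the other classes shown. Within cells rich in macrophage markers it was at 367 CPM (937 UMIs in 26 of 95 cells) and 62.4 CPM (76 UMIs in 5 of 38 cells), a log2 ratio of −2.56 (−2.91 to −2.22). Pdpn was highest in mesothelium-like cells, with 87.0 and 71.0 CPM, and in mesenchyme-like cells had 44.0 and 21.7 CPM, a log2 ratio of −1.02 (−1.27 to −0.78). Reln was at 44.9 and 49.7 CPM in neuron-like cells, where the ratio was within 1.5-fold (0.15, −0.12 to 0.42), unlike in endothelium. Hepatoblast-like cells, 36 outside the endothelial set and all mutant, held 557 Reln UMIs in 31 cells (343 CPM) and Prox1 at 97.8 CPM. The 11 hepatoblast-like cells within the mutant endothelial set held 24 of its 175 Reln UMIs and 10 of its 733 Prox1 UMIs. Itga9 was highest in a small cluster led by Myh11, Actg2 and Myocd (470 CPM in 39 control and 423 CPM in 23 mutant cells). It was higher in mutant branchial muscle-like cells, with 28.9 and 55.9 CPM, a log2 ratio of 0.95 (0.81 to 1.09). Ccbe1 was highest in mesothelium-like cells (151 and 168 CPM). It was lower in the mutant Adh1 cluster (45.9 and 14.6 CPM, log2 ratio −1.65, −2.36 to −1.02) and over all non-endothelial cells (−0.89, −1.03 to −0.76). Log2 ratios were −0.25 in mesenchyme-like and 0.15 in mesothelium-like cells, both within 1.5-fold, and −0.75 in branchial muscle-like and −1.51 in epithelium-like cells. Of the non-endothelial UMIs, 383 of 1381 in control and 21 of 677 in mutant lay in the Adh1 cluster. The part of the mix of cells in the pooled ratio was not tested.

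Other genes of the lymphatic programme were read from lists in endothelial cells, each set against the same 18.6% lower and 12.1% higher over all genes and the median of −0.10. Of 9 regulators, 2 were lower and 3 higher (median −0.21). Gata2, a zinc-finger factor of lymphatic valves, had 70.5 and 37.5 CPM (log2 ratio −0.91). Foxc1, the relative of Foxc2, had a ratio of 1.09 and Hhex, a homeobox regulator, one of 0.80. Of 9 genes of the VEGF-C axis, 4 were lower and 1 higher (median −0.57). Vegfc itself had 70.0 and 32.6 CPM (−1.10), the extracellular protein Svep1 had −2.06, Vegfd −1.87 and Itgb1, the integrin β1 chain, 0.75. Of 10 other lymphatic markers, 5 were lower and 2 higher (median −0.55). The chemokine Ccl21a had 67.8 and 10.4 CPM (−2.71), a value that is uncertain because near-identical copies of the gene can share its reads. Maf had −1.47 and Sema3d −1.36, whereas Nts, encoding neurotensin, had 27.2 and 335 CPM (3.62).

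Of 13 valve and remodelling genes, 4 were lower and 1 higher (median −0.19). The connexin genes Gja4 and Gja1 had ratios of −1.19 and −0.90, Efnb2 one of −0.81 and Fn1, fibronectin, one of 1.02. Of 5 genes of platelet-mediated separation of lymphatic from blood vessels, 2 were lower and 0 higher (median −0.53), with Lcp2, an adaptor of blood cells, at −2.02. Genes of other endothelial types gave the setting. Of 7 venous genes 1 was lower (Aplnr, −0.91) and 2 higher (Vwf, 0.98, and Emcn, 0.80), with a median of 0.06. Of 14 arterial genes 9 were lower and 0 higher, with a median of −0.84, among them Cxcr4 (−2.13), Unc5b (−1.58), Gja5 (−1.39) and Gja4. Of 6 endocardial genes 2 were lower (Cdh11, −1.29, and Npr3, −0.81) and 3 higher (Tbx20, 2.33, Hapln1, 1.38, and Gata4, 1.05), with a median of 0.32.

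Of the receptor genes of the pathway, 4 are given within Prox1-positive cells, and these were named after their values were seen. Flt4, encoding VEGFR3, had 177 and 88.4 CPM (−0.999, −1.22 to −0.77), and its co-receptor gene Nrp2 had 671 and 334 CPM (−1.005, −1.12 to −0.89). Kdr, encoding VEGFR2, had 516 and 521 CPM (0.01) and the co-receptor gene Nrp1 195 and 178 CPM (−0.13). In Prox1-negative cells the ratios were 0.07 for Flt4, 0.39 for Nrp2, −0.10 for Kdr and −0.93 for Nrp1. Among the genes named above from the lists, Ccl21a (−2.86), Svep1 (−3.24), Sema3d (−2.52), Maf (−1.91), Gja4 (−1.77) and Gja1 (−1.64) were lower in Prox1-positive cells. So were Gja5 (−2.51), Cdh11 (−2.09), Lcp2 (−2.06), Unc5b (−1.84), Npr3 (−1.79) and Efnb2 (−0.68). Cxcr4 had 15 control and 3 mutant UMIs (−4.38, −6.81 to −2.56) and Vegfd 4 and 6 UMIs (−1.47, −3.55 to 0.79). Both fell below the minimum of UMIs for comparing genes, so they are not among the genes of the percentages that close this paragraph. The interval of Vegfd covered both directions. Nts (3.07), Hapln1 (2.08), Vwf (1.29), Hhex (1.10), Emcn (0.997), Foxc1 (0.98) and Itgb1 (0.89) were higher. Gata2 (0.20), Vegfc (0.24), Aplnr (−0.01), Fn1 (0.04), Tbx20 (0.34) and Gata4 (−0.38) lay within 1.5-fold. In Prox1-negative cells Gata2 (−1.29) and Vegfc (−1.36) were lower. The list genes had been picked for their ratios in all endothelial cells, which include the Prox1-positive ones. Their directions here are thus no separate result, and the shares over all genes are no background for them. Over all genes, 21.7% were at least 1.5-fold lower and 12.1% higher in Prox1-positive cells.

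The genes whose single-cell pattern was most like that of Prox1 in both libraries, by the lower of the 2 Pearson r over 175 and 771 endothelial cells among 11669 genes, were Tmod2 (r of 0.34 in control and 0.35 in mutant cells), Prkcz (0.72 and 0.34), Plce1 (0.77 and 0.34), Fxyd6, Klhl4, Angpt2 (0.42 and 0.32), Tbx1 (0.39 and 0.32), Nfat5, Rnf141 and Kctd12 (0.57 and 0.27). The same gene, Plce1, which encodes a phospholipase C, was the nearest to Reln (0.78 and 0.43), and Nrp2 the nearest to Nr2f2 (0.53 and 0.47). The nearest genes to the other members were Fndc1 for Lyve1, Hoxd8 for Pdpn, S100a16 for Sox18, Eya4 for Ccbe1, Mast4 for Itga9 and Ctsh for Foxc2. Cells of a library share its depth, so these values are descriptions with no p.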

How the data were processed

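Single cells of 1 control and 1 mutant library were analysed from the UMI counts per gene and cell that the authors deposited, unnormalized, after alignment to mm10 with Cell Ranger 7.1.0 (submitters' processing notes). Whether intronic reads were counted and the annotation release are not given in the sources used here. The members and gene lists were chosen with earlier results of these data known. Cells were filtered to between 2000 and 9000 genes (limits left out) and under 10% mitochondrial UMIs. UMIs were summed per set of cells, and genes with at least 20 UMIs over both libraries were compared. Intervals (95%) were computed by the exact Poisson method (CPM), by Clopper-Pearson (shares) and from the conditional binomial distribution (log2 ratios). For a share of 0 the limit is 3 counts. Clusters came from Seurat 5.3.0 (R 4.3.3), with anchors from canonical correlation and cell-cycle scores regressed. The 2000 variable genes left out the members, the 3 endothelial rule genes and the lymphatic lists. Other genes reported here could enter. With 30 components, resolution 0.25 gave 15 clusters. Clusters were named where at least 3 and at least 50% of a marker list were raised, so names are rebuilt. Macrophage-marker-rich cells held UMIs of at least 6 of 12 markers. Doublets were kept, since Scrublet's own threshold marked 0 control and 1 mutant cells. A cell with Xist but none of the Y-linked genes was taken as female-like, and the reverse as male-like. Named genes are the members, the 4 largest differences per list and direction whose whole interval lies beyond 1.5-fold, and the genes most like each member; 1 gene that this rule selects is not reported here. Upstream windows are from RefSeq, which matched 6 of the 9 members. The ratios and intervals were run on simulated Poisson counts summed per library. The intervals assume that same model, which has no spread over cells, so the run checked the code alone. Tools were edgeR 4.0.16 (TMM only), scanpy 1.11.5, matplotlib 3.10.9, pandas 2.3.3, scipy 1.17.1 and numpy 2.4.6 in Python 3.11.15. Alternatives varied the endothelial rule, filters, depth, scaling, sex class, blood cell genes and doublets. Joining the rule to the cluster, leaving out the highest cell, leaving the endothelial-like cluster out of the other cells, and repeating alternatives within Prox1 sets were chosen after seeing the data.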

Additional observations from a re-analysis of the deposited data

Results flagged for a closer look

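Some members had ratios of mutant over control that pointed one way in one set of cells and the other way in another. These differences were not tested, since each genotype has 1 library. Prox1 had a log2 ratio of −0.67 in endothelial and 1.27 in epithelium-like cells. Lyve1 had 1.65 in Prox1-positive and −1.01 in Prox1-negative endothelial cells, where it was −0.26 in cells thinned to 5000 UMIs. Reln had −2.58 in endothelial and 1.35 in all other cells. Of the 1205 mutant UMIs in these other cells, 557 lay in hepatoblast-like cells, of which the control library had 0. The ratio without hepatoblast-like cells was not computed, so this difference in direction may rest on them. Sox18 had −0.71 in endothelial and 1.06 in all other cells. Of the UMIs of the others, 5 of 67 in control and 44 of 127 in mutant lay in cells of the endothelial-like cluster with fewer than 2 of the 3 endothelial genes, and without these cells the log2 ratio was 0.56, within 1.5-fold. Nr2f2 had 0.66 in endothelial, −0.66 in cardiomyocyte-like cells and −1.97 in the cluster led by Hbb-bs, Ccl4 and Mpo. Itga9 had −0.84 in Prox1-positive and 1.22 in Prox1-negative endothelial cells, and −0.53 in the former without the highest cells.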

How the results depend on the processing

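Over 15 alternatives, members at least 1.5-fold higher in endothelial cells numbered 2 in each, though not always the same 2. Lyve1 was among them (0.73) in cells with no UMI of 5 blood cell genes, and Nr2f2 at its lowest (0.575) lay within 1.5-fold. Members at least 1.5-fold lower numbered 2 to 5, with 2 under TMM scaling. The median log2 ratio of the members ran from −0.78 to 0.10, with −0.71 for the mean over cells and −0.78 for cells thinned to 5000 UMIs. TMM and the median ratio add 0.16 and 0.10 to every log2 ratio. Prox1 (0.016) and Sox18 (0.061) turned direction where 1 of the 3 endothelial genes sufficed; the cause was not tested. The share of Prox1-positive cells was 16.3% in control and 12.97% in mutant after thinning, and 19.4% and 14.5% where 2 UMIs counted as detection. In Prox1-positive cells, Pdpn was at 28.6% in control after thinning and 16.8% in mutant with 1 of 3 genes. Reln in control was at 28.6% with 1 of 3 genes and 64.7% with 2 UMIs. At least 2 of Lyve1, Pdpn and Reln were found in 22.9% of control cells with 1 of 3 genes, and in 6.67% of mutant cells among female-like cells and 7.29% after thinning. Single log2 ratios ran from −0.74 to 0.73 for Lyve1, −1.62 to 0.10 for Pdpn and −4.27 to −1.29 for Ccbe1. No paired analysis was possible because each genotype has 1 library and the labels give no replicate numbers, and no library could be left out. Depth limits Ccbe1, Pdpn and Foxc2 in control cells most, with 69, 78 and 54 UMIs.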
